A study of Mus musculus with 18 samples.

Results

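The genes described here are the secreted antimicrobial and granule proteins of the intestinal crypt, 36 of the 43432 genes counted in the series. They were chosen by name, with no measured value in the rule. The rule takes every gene whose GRCm38 symbol is Defa followed by a number, which gives 22 alpha-defensins, and 14 other genes. These are Lyz1, Mmp7, Ang4, Itln1, Pla2g2a, Mptx2 and Habp2, called the other granule genes here although Habp2 is known mainly as a plasma hyaluronan-binding protease, the lectins Reg3a, Reg3b, Reg3g and Reg4, the guanylins Guca2a and Guca2b, and the stress-response gene Nupr1.

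Paneth cells sit at the crypt base between the Lgr5-expressing stem cells and store antimicrobial proteins in large apical granules. Mouse alpha-defensins, also called cryptdins, are made as inactive precursors that the metalloproteinase encoded by Mmp7 cuts, and disulphide bonds between conserved cysteines hold the mature peptide in shape. The Reg3 lectins bind bacteria and are also made by enterocytes, and the guanylins are peptide ligands of the receptor guanylate cyclase C on the epithelial surface.

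RNA with poly(A) tails was sequenced from 18 libraries of sorted intestinal stem cells, 5000 to 10000 cells by the protocol, from mice aged 8 to 16 weeks. At 14 days after tamoxifen there were 5 libraries of Dlg1 conditional knock-out cells and 5 of wild-type cells, and at 48 hours, called 2 days here, there were 4 of each. The knock-out columns of the 2-day table are named Dmin, read here as Dlg1 minus, and each 2-day direction rests on that reading. Mice of all 4 groups received tamoxifen, the drug used to induce the deletion. The labels name neither the driver of the recombinase nor the deleted exons, and they do not say that each library came from its own animal, so a p-value here measures the spread between samples, which may be technical.

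The alpha-defensin genes lie within 0.71 Mb of chromosome 8 (GRCm38, chr8:21025545-21735471). Many differ by few bases from another copy, which bears on the alpha-defensin values below. Others stand further apart, with a coding identity of 68.5% between Defa29 and Defa24. The last 120 coding bases of 9 of them follow, read 5′ to 3′ from the GENCODE M21 transcripts, with the codons of the 6 conserved cysteines in capitals. Defa24, Defa30 and Defa17 held most of the family's counts, Defa3 is the copy of Defa17, Defa26, Defa21 and Defa22 were counted at lower levels, and Defa20 and Defa32 had no count in any library.
Defa24: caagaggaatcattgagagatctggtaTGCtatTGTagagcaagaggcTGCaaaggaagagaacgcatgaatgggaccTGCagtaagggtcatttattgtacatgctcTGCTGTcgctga
Defa30: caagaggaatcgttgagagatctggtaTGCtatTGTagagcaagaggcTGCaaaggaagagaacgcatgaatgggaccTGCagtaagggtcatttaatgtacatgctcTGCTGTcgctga
Defa17: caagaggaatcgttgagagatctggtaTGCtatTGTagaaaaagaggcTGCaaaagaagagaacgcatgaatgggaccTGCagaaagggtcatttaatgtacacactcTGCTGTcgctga
Defa3: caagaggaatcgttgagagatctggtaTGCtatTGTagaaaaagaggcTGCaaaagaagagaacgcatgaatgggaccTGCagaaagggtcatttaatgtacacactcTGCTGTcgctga
Defa26: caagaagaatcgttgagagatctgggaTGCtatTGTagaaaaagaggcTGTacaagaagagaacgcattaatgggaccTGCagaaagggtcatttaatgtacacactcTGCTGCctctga
Defa21: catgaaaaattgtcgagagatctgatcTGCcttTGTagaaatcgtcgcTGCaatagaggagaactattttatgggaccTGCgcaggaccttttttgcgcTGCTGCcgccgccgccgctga
Defa22: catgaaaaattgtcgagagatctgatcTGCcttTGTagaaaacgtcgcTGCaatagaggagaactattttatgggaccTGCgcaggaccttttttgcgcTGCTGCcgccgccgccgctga
Defa20: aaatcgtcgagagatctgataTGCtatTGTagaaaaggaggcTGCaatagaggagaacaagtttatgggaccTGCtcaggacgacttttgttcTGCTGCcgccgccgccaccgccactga
Defa32: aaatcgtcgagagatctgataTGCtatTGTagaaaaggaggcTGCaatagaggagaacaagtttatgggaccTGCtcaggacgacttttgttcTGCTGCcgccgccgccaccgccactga

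In these 120 bases Defa24 and Defa30 differed at 2 positions, Defa24 and Defa17 at 8, and Defa21 and Defa22 at 1, while Defa17 and Defa3 were identical, as were Defa20 and Defa32. Over the whole coding sequence Defa24 and Defa30 shared 98.6% of bases. Reads of near-identical copies cannot be assigned from such stretches alone, and no source used here says how the authors counted reads that map to several genes. Values of single alpha-defensins are therefore uncertain, and the sum over the family is given beside them.

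The sequence that an alpha-defensin has in common with other genes ranged from a small part to all of it. Every transcript was split into words of 50 bases, and the share of a gene's words that also occur in another gene was counted. That share was 28.1% for Defa24, 52.4% for Defa30, 92.0% for Defa17 and 92.2% for Defa3. The 8 alpha-defensins with 0 counts in all 18 libraries, Defa2, Defa5, Defa20, Defa31, Defa32, Defa33, Defa36 and Defa37, shared 95.4% to 100% of their words, and 7 of them have a coding sequence identical to that of another gene. A count of 0 allows up to 3 counts a library, a limit that covers counting error only, and for genes that own so few words it is not a measure of absent transcript. Defa23, Defa25, Defa27, Defa28 and Defa35 had counts in some libraries, never above 26 in 1 library, and were too low to test. The other 9 alpha-defensins were tested at 14 days and 8 of these at 2 days, when Defa34 was too low. All 14 members outside the family were tested at both times. Of these, 12 shared under 10% of their words, 7 of them none, while Mptx2 shared 17.99% with Mptx1 and Lyz1 16.1% with Lyz2. Mmp7 overlaps 123 exon bases of AV064505 and Habp2 overlaps 268 of Nrap, and Pla2g2a is annotated as a polymorphic pseudogene.

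**Figure D1:**
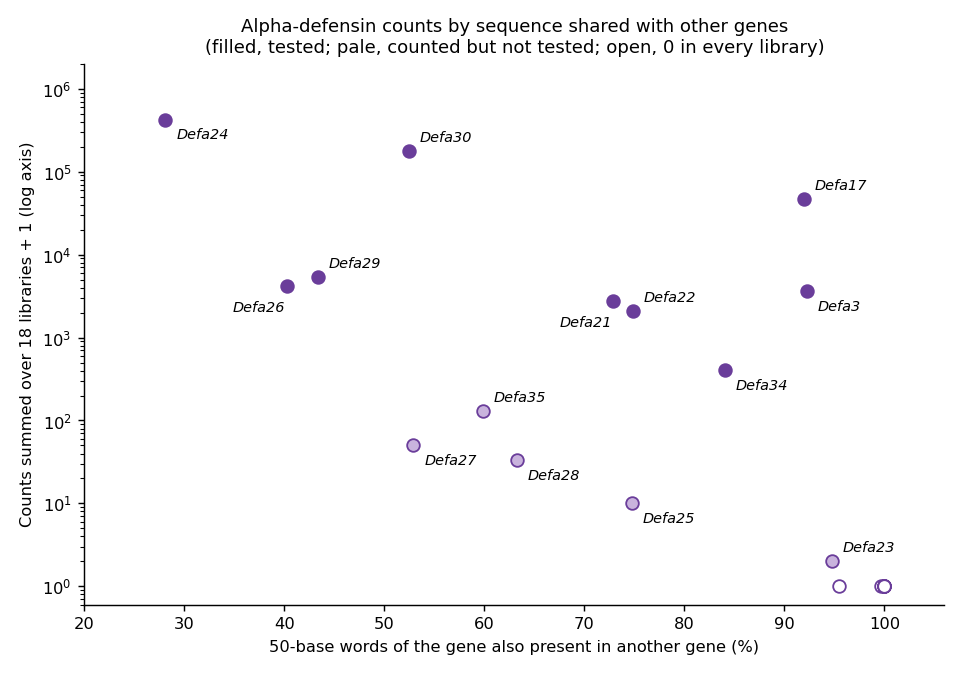
Counts of each alpha-defensin gene summed over 18 libraries plus 1 (vertical, log axis) against the percent of its 50-base words also present in another gene (horizontal). Filled points are the 9 tested genes, pale points the 5 with counts too low to test, and open points, some on top of each other, the 8 genes at 0. The genes at 0 all lie at 95.4% or more, while Defa24 at 28.1% has the most counts.

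Other gene models lie between the alpha-defensins. The locus holds 39 that the naming rule does not match, of which 25 had at least 1 count and 6 are annotated as protein-coding. AY761184 and Gm14851, named here after their counts were seen, were at 596 ± 184 and 239 ± 54.0 CPM in knock-out libraries, against 725 ± 849 and 348 ± 396 CPM in wild-type ones at 14 days (SD, n = 5 each). At 2 days they were at 321 ± 136 and 189 ± 83.0 CPM in knock-out libraries, against 251 ± 228 and 156 ± 131 CPM in wild-type ones (SD, n = 4 each). CPM stands for counts brought to a common total, with totals scaled by the trimmed mean of M-values (TMM) within each time.

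Of the 36 members, 25 matched an entry in the RefSeq promoter table, 12 of them alpha-defensins. The promoters of Defa30, Lyz1 and Reg3g follow, from 250 bases before to 50 after the gene's start (RefSeq, GRCm38.p6), as 1 example each of the defensins, the other granule genes and the lectins. Capitals mark ATCAAAG, the letters bound by the Tcf and Lef factors of Wnt signalling, on either strand (CTTTGAT where it reads on the other strand), and TATAAA on the gene's strand. They stand at chr8:21134400-21134699 (plus strand), chr10:117292819-117293118 (minus strand) and chr6:78468825-78469124 (minus strand).
Defa30: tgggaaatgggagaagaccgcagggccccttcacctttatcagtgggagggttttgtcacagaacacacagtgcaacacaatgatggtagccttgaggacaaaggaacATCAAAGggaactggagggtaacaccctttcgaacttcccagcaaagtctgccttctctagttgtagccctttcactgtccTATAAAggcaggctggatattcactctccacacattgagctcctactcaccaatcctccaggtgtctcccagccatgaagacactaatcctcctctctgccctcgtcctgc
Lyz1: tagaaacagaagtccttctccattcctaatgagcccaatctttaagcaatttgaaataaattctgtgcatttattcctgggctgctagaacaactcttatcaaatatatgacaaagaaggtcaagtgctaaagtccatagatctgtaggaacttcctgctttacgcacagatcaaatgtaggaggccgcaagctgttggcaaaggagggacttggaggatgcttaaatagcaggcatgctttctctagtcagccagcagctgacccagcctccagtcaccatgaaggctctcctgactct
Reg3g: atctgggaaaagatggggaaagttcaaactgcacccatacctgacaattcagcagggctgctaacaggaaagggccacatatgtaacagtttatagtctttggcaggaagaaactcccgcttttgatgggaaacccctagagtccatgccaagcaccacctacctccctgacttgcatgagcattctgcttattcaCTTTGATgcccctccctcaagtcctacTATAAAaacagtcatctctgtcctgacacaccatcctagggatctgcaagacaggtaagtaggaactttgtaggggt

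ATCAAAG, searched on both strands, was present in 12 of 12 alpha-defensin promoters and in 3 of 13 of the other members, those of Mmp7, Reg3a and Reg3g, against 1160 of 27025 promoters of all genes (4.29%). TATAAA, searched on the gene's strand only, was present in 11 of 12 alpha-defensin promoters and in 3 of 13 of the others, against 9.77% of all promoters. The pairs Defa2 and Defa20, Defa21 and Defa22, Defa23 and Defa31, and Defa36 and Defa37 have identical promoters, so these matches are not independent. A match is a description of the letters in the window, not a bound site or a cause.

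Libraries at 14 days held 11.1 to 15.7 M counts (M, mega) and those at 2 days held 14.8 to 40.5 M. The mitochondrial share ran from 6.21% to 26.3% at 14 days and from 26.1% to 49.1% at 2 days, and 13 repeat-like gene models made up 47.0% of knock-out library 5 at 14 days, against at most 10.1% of any other. Dlg1, the targeted gene, was at 64.3 ± 23.8 CPM in knock-out libraries, against 72.0 ± 11.95 CPM in wild-type ones at 14 days (SD, n = 5 each, log2 fold change -0.17 ± 0.22 SE, adjusted p = 0.957, edgeR quasi-likelihood test, Benjamini-Hochberg). The 2-day levels were 45.7 ± 8.49 CPM in knock-out libraries, against 59.4 ± 9.18 CPM in wild-type ones (SD, n = 4 each, -0.38 ± 0.19 SE, adjusted p = 0.866 by the same test). The count covers the whole gene, not the deleted exons, so it does not check the labels by itself. The stem cell marker Lgr5 was counted in every library, at 53.1 CPM or more. The sum of 17 crypt base stem cell genes was 2549 to 3606 CPM in knock-out and 2875 to 3831 CPM in wild-type libraries at 14 days. At 2 days it was 5340 to 6132 CPM in knock-out and 6063 to 6902 CPM in wild-type libraries. Of these genes 10 had a negative log2 fold change and 7 a positive one at 14 days. At 2 days 12 were negative and 5 positive, and at either time 0 had an adjusted p under 0.05 by the same test. The 17 immune cell markers summed to 13.1 to 28.5 CPM at 14 days and 26.8 to 71.6 CPM at 2 days.

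The labels call the cells stem cells, and the module made up a small share of their counts that varied widely between libraries. In knock-out libraries at 14 days the 22 alpha-defensins took 0.374%, 0.332%, 0.315%, 0.476% and 0.275% of all counts. In wild-type libraries at 14 days they took 0.196%, 0.407%, 1.34%, 0.301% and 0.227%. Wild-type library 3 was far above every other library, while the other 4 wild-type libraries and the 5 knock-out libraries overlapped. At 2 days the alpha-defensins took 0.0330%, 0.0901%, 0.126% and 0.0619% of counts in knock-out libraries, against 0.0462%, 0.0580%, 0.138% and 0.00800% in wild-type libraries. Both the highest and the lowest of these 8 libraries were wild-type. In bulk samples, fewer Paneth cells and less RNA per Paneth cell cannot be told apart.

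The other 14 members took 0.604% ± 0.346 of counts in knock-out libraries and 0.498% ± 0.324 in wild-type ones at 14 days (SD, n = 5 each). At 2 days they took 0.113% ± 0.0510 in knock-out and 0.114% ± 0.128 in wild-type libraries (SD, n = 4 each). The highest library exceeded the lowest by 4.91 times at 14 days and by 10.6 times at 2 days, and for the alpha-defensins by 6.86 and 17.2 times. A range over the libraries of both genotypes can never be smaller than the ratio of the genotype means, so these ranges do not weigh 1 against the other.

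**Figure D2:**
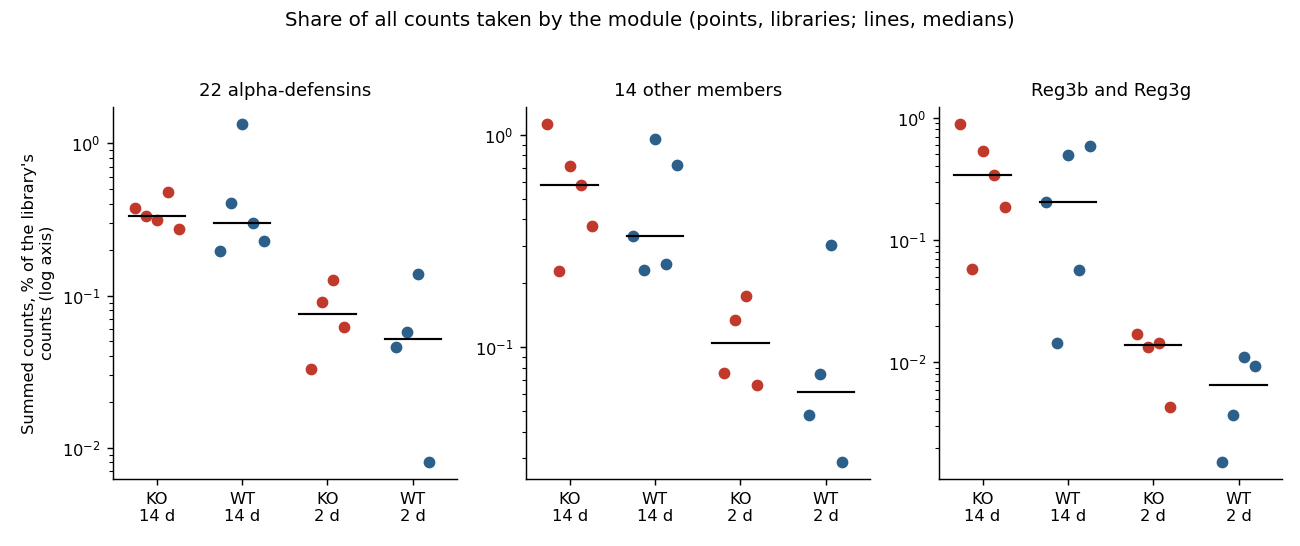
Summed counts of the 22 alpha-defensins, the 14 other members, and Reg3b with Reg3g, as percent of a library's counts (log axis), by genotype and time (KO, Dlg1 conditional knock-out; WT, wild type). Points are libraries and lines are group medians. Knock-out and wild-type libraries overlap in every panel at both times, with wild-type alpha-defensin shares from 0.196% to 1.34% at 14 days.

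No member was called different between genotypes. At an adjusted p under 0.05, the quasi-likelihood test of edgeR, adjusted by Benjamini-Hochberg, called 0 of 23 tested members at 14 days and 0 of 22 at 2 days, where it called 0.0% of all 13991 and 0.0% of all 13031 genes tested. At an unadjusted p under 0.05 there were 0 members at 14 days, where 2.44% of all genes passed as higher and 1.55% as lower in knock-out libraries. At 2 days 3 members passed as higher, Reg3b, Guca2a and Guca2b, and 0 as lower, against 2.72% and 2.19% of all genes. DESeq2 called 0 members at either time, with 0 at 14 days and 3 at 2 days under an unadjusted 0.05, where 4.87% and 6.22% of all genes passed in either direction. Limma voom also called 0, with 2 members at each time under an unadjusted 0.05, where 4.62% of all genes passed at 14 days and 5.36% at 2 days. Adjusted p-values of the members ran from 0.957 to 0.996 at 14 days and from 0.866 to 0.992 at 2 days. The median log2 fold change of the tested members was 0.15 at 14 days, with 13 positive and 10 negative, and 0.19 at 2 days, with 14 positive and 8 negative. The medians over all genes tested were 0.01 at both times. Without wild-type library 3 of its time, the members' median was 1.04 at 14 days and 1.04 at 2 days, and over all single libraries left out it ranged from -0.11 to 1.04 and from -0.13 to 1.04. Limma voom had 20 of 23 members positive at 14 days (median 0.55) and 21 of 22 at 2 days (median 0.86), and the cause of this difference from edgeR was not tested. In no tested member were the 2 genotypes free of overlap, at either time. Among all genes, 0.272% had every knock-out library higher and 0.257% every knock-out library lower at 14 days, and 2.03% and 1.94% at 2 days.

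**Figure D3:**
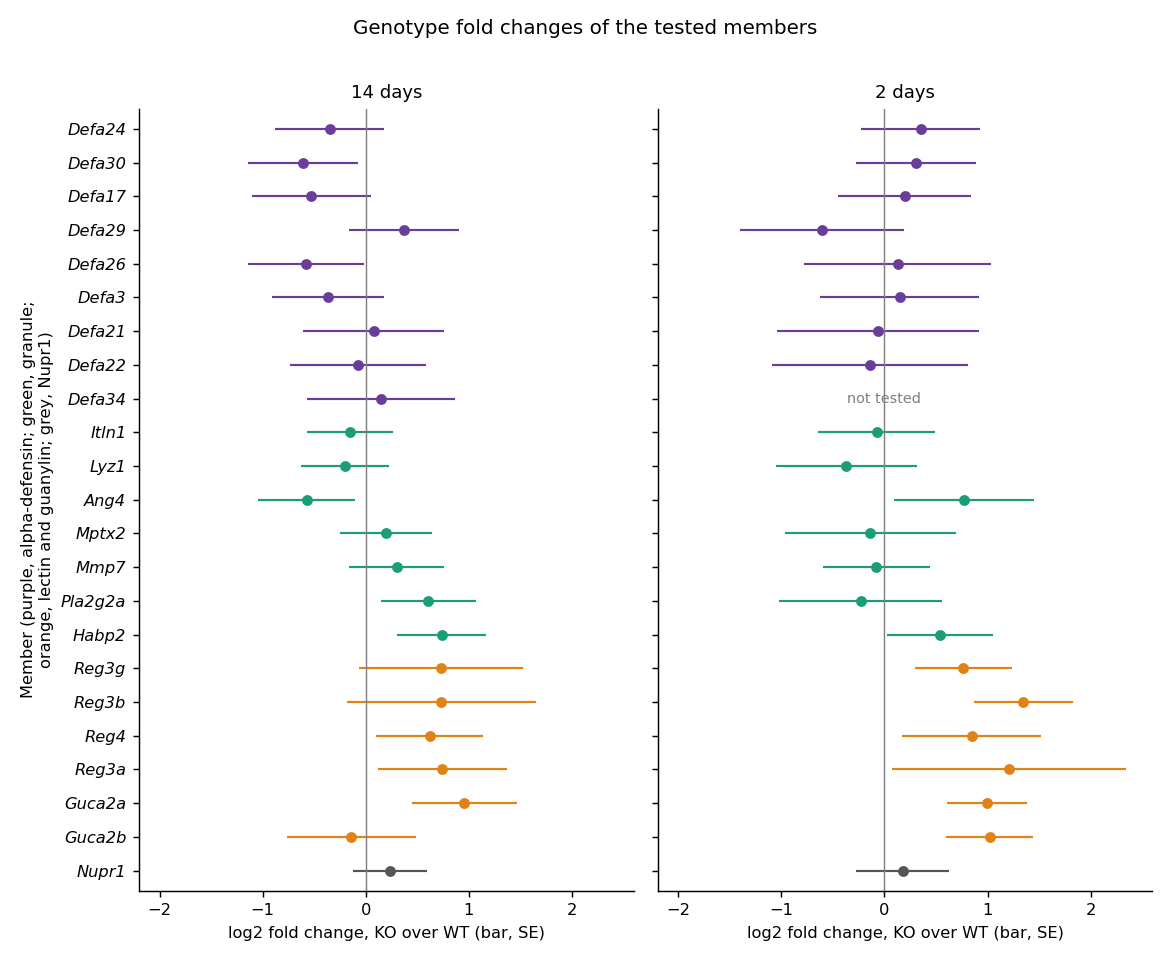
Log2 fold changes, knock-out over wild type, of the tested members at 14 days (left) and 2 days (right), with standard errors as bars. Purple marks alpha-defensins, green the other granule genes, orange the lectins and guanylins and grey Nupr1. The 4 Reg lectins lie to the right of 0 at both times, from 0.62 to 0.74 at 14 days and from 0.77 to 1.35 at 2 days, none past the adjusted threshold. Itln1, a lectin placed with the other granule genes, is at -0.15 at 14 days and -0.08 at 2 days. Without knock-out library 1 of the time, Reg3a is at -0.31 at 14 days and -0.25 at 2 days and Reg4 at -0.01 at 14 days.

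Among the alpha-defensins, Defa24 (chr8:21734494-21735471, plus strand) had the most counts. It was at 3137, 1954, 2224, 2992 and 3041 CPM in knock-out libraries at 14 days, against 1165, 2206, 10539, 1811 and 1293 CPM in wild-type libraries. Every knock-out library lay above the wild-type median of 1811 CPM, and wild-type library 3 lay above every knock-out library. Its log2 fold change was -0.35 ± 0.53 (SE, adjusted p = 0.961, edgeR quasi-likelihood test, Benjamini-Hochberg), against 0.72 without wild-type library 3. At 2 days Defa24 was at 158, 508, 512 and 309 CPM in knock-out libraries, against 304, 272, 552 and 38.5 CPM in wild-type libraries. Wild-type library 4 was far below the other 7 libraries, which overlapped between genotypes. The log2 fold change was 0.35 ± 0.57 (SE, adjusted p = 0.932 by the same test), and -0.02 without wild-type library 4.

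Defa30 (chr8:21134642-21135598, plus strand) was highest and lowest in nearly the same libraries. It was at 838, 776, 678, 1128 and 957 CPM in knock-out libraries at 14 days, against 405, 873, 4205, 644 and 536 CPM in wild-type libraries. In the 2-day table it stood at 110.4, 301, 412 and 254 CPM in knock-out libraries, against 256, 203, 385 and 25.9 CPM in wild-type libraries. The genotypes overlapped at both times, and the log2 fold changes were -0.61 ± 0.53 at 14 days and 0.31 ± 0.58 at 2 days (SE). Without wild-type library 3 the 14-day value was 0.51, and without wild-type library 4 the 2-day value was -0.07.

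Defa17 (chr8:21655780-21656735, plus strand), whose reads cannot be told from those of Defa3 within the coding sequence, was at 220.3, 171, 195, 256 and 217 CPM in knock-out libraries at 14 days, against 77.8, 176, 1041, 123 and 109 CPM in wild-type libraries. The 2-day levels were 38.4, 123, 139.8 and 69.8 CPM in knock-out libraries, against 92.9, 58.1, 166 and 7.34 CPM in wild-type libraries. Again wild-type library 3 was highest and wild-type library 4 at 2 days lowest. The remaining 6 tested alpha-defensins had log2 fold changes from -0.58 to 0.37 at 14 days. Defa34, tested at 14 days only, was at 3.35, 1.54, 1.16, 2.78 and 6.85 CPM in knock-out libraries, against 1.45, 0.939, 9.50, 1.68 and 0.626 CPM in wild-type libraries.

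The alpha-defensins varied together from library to library. Of the 9 tested at 14 days, 9 were highest in wild-type library 3 and 7 were lowest in wild-type library 1. Of the 8 tested at 2 days, 7 were highest in wild-type library 3 and 8 were lowest in wild-type library 4. The median over the family lay 2.196 log2 units above each gene's mean over the libraries of its time in wild-type library 3 at 14 days, while in wild-type library 4 at 2 days it lay at -2.62. Libraries of the same number at 14 and 2 days are unrelated, since numbers give only the place in each table.

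The mix of alpha-defensins varied little between libraries of 1 time. Defa24 held 66.0% to 72.5% of the family's counts in knock-out and 65.1% to 69.1% in wild-type libraries at 14 days. At 2 days it held 46.8% to 52.8% in knock-out and 44.8% to 52.7% in wild-type libraries. Its share at 14 days did not overlap that at 2 days in either genotype. Defa30 held 22.7% ± 2.80 in knock-out libraries and 25.5% ± 1.31 in wild-type ones at 14 days (SD, n = 5 each), and 35.6% ± 3.52 in knock-out libraries and 35.8% ± 2.29 in wild-type ones at 2 days (SD, n = 4 each). Defa17 held 5.52% ± 0.483 in knock-out and 5.30% ± 0.742 in wild-type libraries at 14 days, and 12.1% ± 0.939 in knock-out libraries and 12.1% ± 2.07 in wild-type ones at 2 days (SD, same n). Time and table cannot be told apart, so this difference carries no test. All these shares rest on counts of single copies, which are uncertain where copies share sequence.

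Lyz1 (chr10:117287797-117292868, minus strand), which encodes the Paneth cell lysozyme that cuts bacterial cell walls, was at 372, 199, 264, 438 and 695 CPM in knock-out libraries at 14 days. In wild-type libraries at 14 days it was at 265, 446, 986, 411 and 157 CPM. In the 2-day table it stood at 269.7, 525, 504 and 199 CPM in knock-out libraries, against 196, 244, 1414 and 82.8 CPM in wild-type libraries. Wild-type library 3 was again the highest at each time, and the genotypes overlapped. The log2 fold changes were -0.20 ± 0.43 at 14 days and -0.37 ± 0.68 at 2 days (SE), and without wild-type library 3 they were 0.30 and 1.10.

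Itln1 (chr1:171518122-171535294, minus strand), which encodes the sugar-binding lectin intelectin, was at 530.0, 516, 564, 876 and 1084 CPM in knock-out libraries at 14 days, against 333, 687, 1946, 555 and 445 CPM in wild-type libraries. The 2-day levels were 124, 351, 382 and 196 CPM in knock-out libraries, against 299.9, 207, 563 and 41.9 CPM in wild-type libraries. The medians nearly coincided at both times, at 564 CPM in knock-out libraries, against 555 CPM in wild-type ones at 14 days, and 274 CPM in knock-out libraries, against 253 CPM in wild-type ones at 2 days. The log2 fold changes of Itln1 were -0.15 ± 0.42 at 14 days and -0.08 ± 0.57 at 2 days (SE). Itln1 is placed with the other granule genes, and the lectins counted as a class here are the Reg genes only.

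Ang4 (chr14:51763878-51773590, minus strand), a ribonuclease with bactericidal activity, was at 149, 299, 168, 178 and 148 CPM in knock-out libraries at 14 days, against 101, 222, 793, 143 and 142 CPM in wild-type libraries. In the 2-day table it stood at 38.4, 199.7, 278 and 139.5 CPM in knock-out libraries, against 87.9, 108, 178 and 8.96 CPM in wild-type libraries. It had the smallest p of the members for a difference of the genotype effect between times, -0.57 ± 0.47 at 14 days and 0.78 ± 0.68 at 2 days (log2, SE). The effect at 14 days minus that at 2 days was -1.38 ± 0.89 (SE, unadjusted p = 0.136, adjusted p = 0.860, edgeR quasi-likelihood test, Benjamini-Hochberg).

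Mptx2 (chr1:173274382-173277777, minus strand), which encodes a pentraxin of the crypt base, was at 172, 183, 188, 291 and 316 CPM in knock-out libraries at 14 days, against 81.3, 107, 555, 149.7 and 110.0 CPM in wild-type libraries. Apart from wild-type library 3, every wild-type library lay below every knock-out library. The log2 fold change was 0.20 ± 0.45 (SE, adjusted p = 0.974, edgeR quasi-likelihood test, Benjamini-Hochberg), and 1.04 without wild-type library 3. At 2 days Mptx2 was at 22.6, 71.4, 97.3 and 34.8 CPM in knock-out libraries, against 39.0, 13.7, 191 and 5.29 CPM in wild-type libraries, again with the widest range among the wild-type libraries.

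Mmp7 (chr9:7692090-7699585, plus strand), the enzyme that activates mouse alpha-defensins, had a like pattern. It was at 109.8, 58.0, 105, 83.4 and 152 CPM in knock-out libraries at 14 days, against 34.5, 45.5, 233, 46.9 and 52.9 CPM in wild-type libraries. Its 2-day levels were 15.3, 40.0, 48.4 and 14.6 CPM in knock-out libraries, against 15.5, 34.1, 62.8 and 12.6 CPM in wild-type libraries. Of the 14-day libraries, 4 of 5 wild-type libraries lay below every knock-out library, while at 2 days the genotypes were interleaved. Its log2 fold changes were 0.30 ± 0.46 at 14 days and -0.08 ± 0.52 at 2 days (SE), and without wild-type library 3 the 14-day value was 1.17.

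Pla2g2a (chr4:138831857-138835186, plus strand), annotated as a polymorphic pseudogene here, encodes a secreted phospholipase that acts on bacterial membranes. It was at 42.8, 16.2, 18.8, 19.2 and 27.2 CPM in knock-out libraries at 14 days, against 10.7, 8.51, 44.8, 10.03 and 8.20 CPM in wild-type libraries. In the 2-day table it stood at 3.66, 5.65, 6.14 and 2.15 CPM in knock-out libraries, against 0.869, 2.62, 16.0 and 1.29 CPM in wild-type libraries. Of the 14-day libraries, the wild-type libraries other than library 3 lay below every knock-out library. The log2 fold changes were 0.61 ± 0.46 at 14 days (adjusted p = 0.957, edgeR quasi-likelihood test, Benjamini-Hochberg) and -0.23 ± 0.79 at 2 days (SE), and without wild-type library 3 of each time they were 1.40 and 1.46.

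Habp2 (chr19:56287137-56320822, plus strand) was highest in knock-out library 1 at 14 days and knock-out library 2 at 2 days, not in the libraries highest for most granule genes. It was at 4.04, 1.54, 2.15, 2.44 and 2.995 CPM in knock-out libraries at 14 days, against 0.727, 2.35, 1.25, 1.51 and 2.004 CPM in wild-type libraries. Its 2-day levels were 5.03, 19.0, 8.46 and 3.38 CPM in knock-out libraries, against 4.09, 7.18, 9.50 and 3.99 CPM in wild-type libraries. The 14-day values overlapped, with 3 of 5 knock-out libraries above every wild-type library, at a log2 fold change of 0.74 ± 0.43 (SE). Its two-sided exact permutation p at 14 days, 0.0556 unadjusted and 1 of 31 such tests, was the smallest of the named members at that time, where 5 against 5 libraries allow 0.00794 at the least. In proportion to alpha-defensin counts the libraries did not overlap between times, at 0.00770 to 0.101 Habp2 counts per 100 alpha-defensin counts at 14 days, against 0.522 to 5.46 at 2 days. Time and table cannot be told apart here either.

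**Figure D4:**
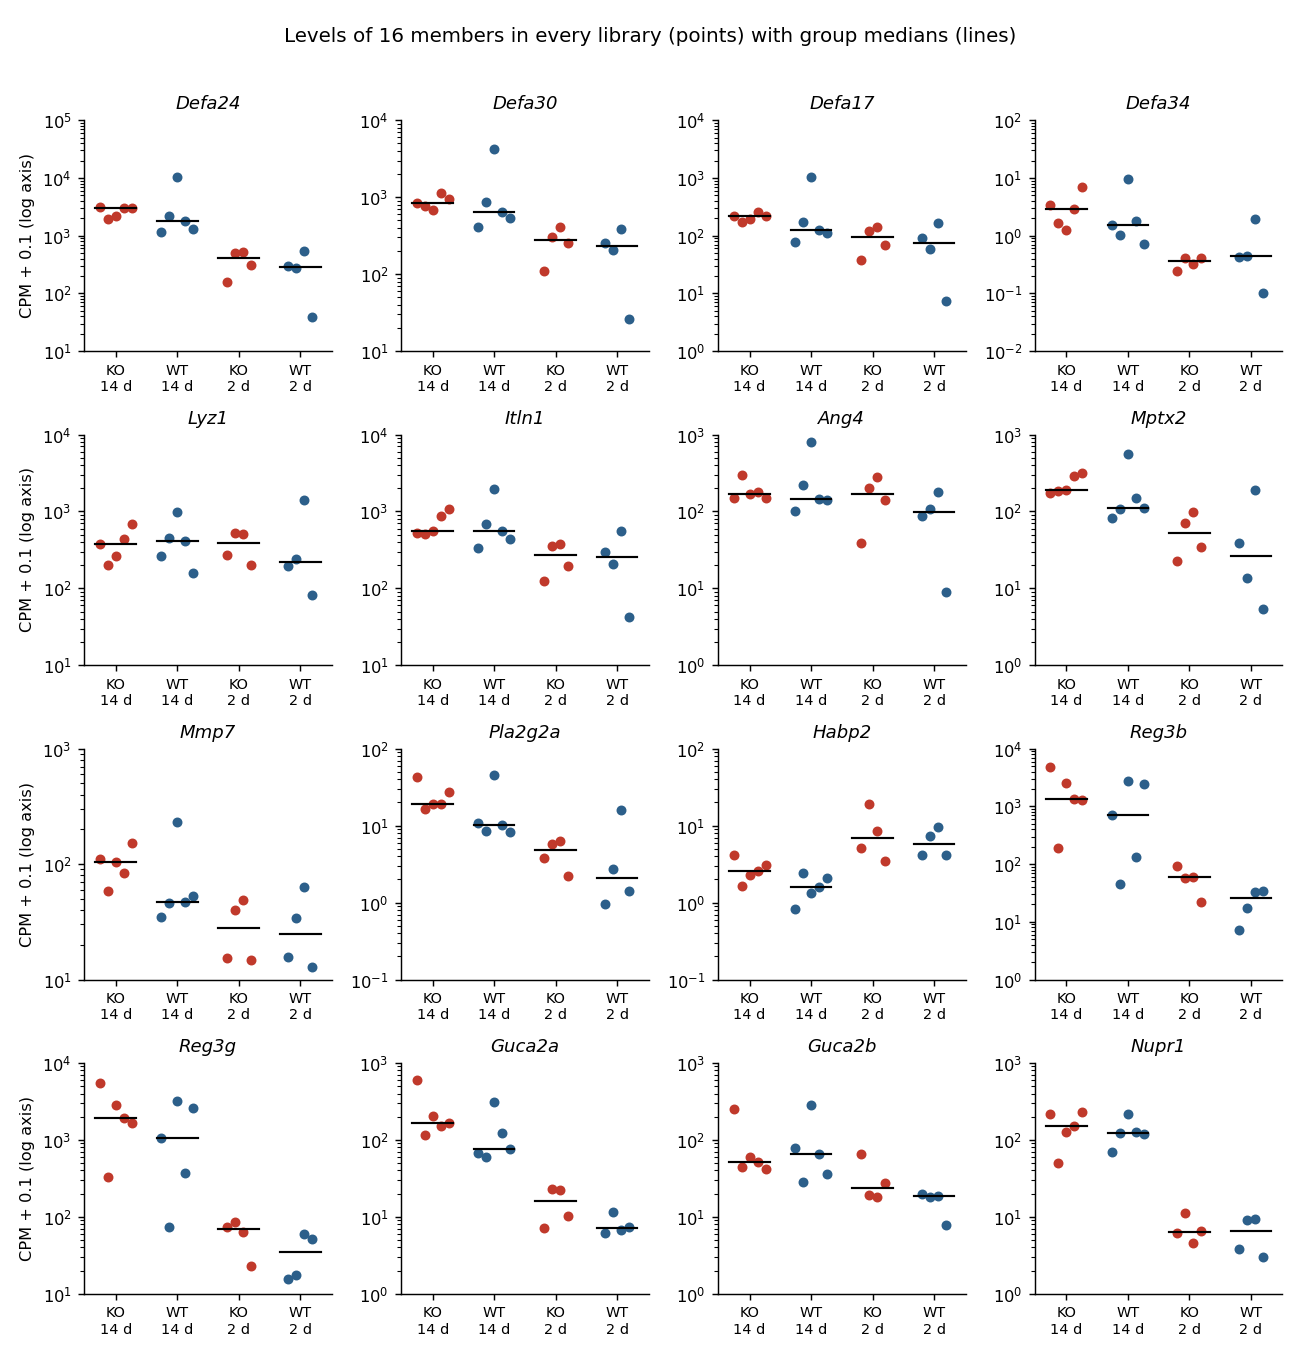
CPM plus 0.1 (log axis, limits set per gene) of the 16 members named by rule, in knock-out (KO, red) and wild-type (WT, blue) libraries at 14 and 2 days. Points are libraries in table order and lines are group medians. Wild-type library 3 at 14 days is the highest blue point of that time for all genes but Habp2, and the genotypes overlap in every panel.

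At 14 days 5 of the 6 lectins and guanylins were highest in knock-out library 1, and 6 of the 7 other granule genes in wild-type library 3. Reg3b (chr6:78370657-78373466, plus strand), a lectin that binds bacteria, was at 4799, 188, 2586, 1319.8 and 1289 CPM in knock-out libraries at 14 days. In wild-type libraries at 14 days it was at 703, 45.2, 2749.8, 134 and 2490.4 CPM. Levels within each genotype spanned more than an order of magnitude, and the groups overlapped, with a log2 fold change of 0.73 ± 0.91 (SE, adjusted p = 0.957, edgeR quasi-likelihood test, Benjamini-Hochberg). At 2 days Reg3b was at 92.1, 56.8, 60.5 and 21.8 CPM in knock-out libraries, against 7.06, 17.3, 33.3 and 33.5 CPM in wild-type libraries. Knock-out libraries 1 to 3 lay above every wild-type library and knock-out library 4 lay among them. The log2 fold change of 1.35 ± 0.48 (SE) had the smallest p of the members at 2 days, 0.0156 unadjusted and 0.866 adjusted by the same test. The two-sided exact permutation p was 0.0857 unadjusted, where 4 against 4 libraries allow 0.0286 at the least. Over the fits that left out a library the log2 fold change ranged from 1.03 to 1.62.

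Reg3g (chr6:78466269-78468872, minus strand), a lectin directed at Gram-positive bacteria, was at 5458, 329, 2821, 1909 and 1646 CPM in knock-out libraries at 14 days, against 1065, 73.6, 3211, 369.6 and 2611 CPM in wild-type libraries. In the 2-day table it stood at 73.8, 85.2, 63.5 and 23.1 CPM in knock-out libraries, against 15.3, 17.7, 60.5 and 51.4 CPM in wild-type libraries. The same 3 knock-out libraries as for Reg3b lay above all wild-type libraries at 2 days. The log2 fold changes were 0.73 ± 0.79 at 14 days and 0.77 ± 0.47 at 2 days (SE). Per count of Reg3b there were 1.09 to 1.76 counts of Reg3g in knock-out and 1.05 to 2.75 in wild-type libraries at 14 days, and 0.801 to 1.501 in knock-out and 1.02 to 2.16 in wild-type libraries at 2 days. The ratio of the pair varied far less than either gene did.

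Together Reg3b and Reg3g took 0.401% ± 0.325 of counts in knock-out libraries and 0.271% ± 0.257 in wild-type ones at 14 days (SD, n = 5 each). At 2 days they took 0.0122% ± 0.00553 in knock-out and 0.00638% ± 0.00449 in wild-type libraries (SD, n = 4 each). The lowest library at 14 days, wild-type library 2 at 0.0145%, was near the highest at 2 days, knock-out library 1 at 0.0171%. Reg3a was much lower, at 17.1 ± 19.8 CPM in knock-out libraries, against 10.3 ± 7.51 CPM in wild-type ones at 14 days (SD, n = 5 each), and had 0 counts in knock-out library 3 at 2 days. Without knock-out library 1 its log2 fold change was -0.31 at 14 days and -0.25 at 2 days, and with each library left out in turn it reached 1.22 and 2.01. Reg4, which is also made by enteroendocrine and goblet cells, was at 111 ± 91.4 CPM in knock-out libraries, against 72.6 ± 61.5 CPM in wild-type ones at 14 days, and at 16.9 ± 9.28 CPM in knock-out libraries, against 9.47 ± 9.61 CPM in wild-type ones at 2 days (SD, n = 5 each at 14 days and 4 each at 2 days). Its log2 fold change ran from -0.01 without knock-out library 1 to 1.29 at 14 days, and from 0.49 to 1.74 at 2 days, over the fits that left out a library.

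Guca2a (chr4:119637704-119639471, plus strand), the guanylin gene, was at 599.6, 116, 201, 149.9 and 165 CPM in knock-out libraries at 14 days, against 67.4, 59.5, 309, 124 and 76.0 CPM in wild-type libraries. Its 2-day levels were 7.08, 22.8, 22.005 and 10.2 CPM in knock-out libraries, against 5.97, 11.3, 6.73 and 7.18 CPM in wild-type libraries. Every knock-out library lay above the wild-type median at both times, and the genotypes overlapped at both. The log2 fold changes were 0.96 ± 0.51 at 14 days and 0.996 ± 0.39 at 2 days (SE). Averaged over both times in 1 fit of all 18 libraries, the genotype effect was 0.97 ± 0.36 (SE, unadjusted p = 0.0129, adjusted p = 0.829, edgeR quasi-likelihood test, Benjamini-Hochberg). Without a filter on low counts the adjusted p was 4.65e-04, with the same log2 fold change of 0.97, and it was past the threshold under no other setting tried. Guca2a was the 1 member under an unadjusted 0.05 in this averaged contrast, as higher, where 5.81% of all genes passed, 3.24% as higher and 2.57% as lower, and edgeR called 0 members and 0.00647% of all genes. DESeq2 called 0 members there as well and limma voom 0, with 1 and 3 under an unadjusted 0.05, where 6.86% and 6.28% of all genes passed.

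Guca2b (chr4:119656607-119658954, minus strand), the uroguanylin gene, was at 249, 44.3, 59.3, 52.1 and 41.4 CPM in knock-out libraries at 14 days, against 77.6, 27.9, 285, 65.7 and 36.3 CPM in wild-type libraries. In the 2-day table it stood at 65.2, 19.2, 18.2 and 27.7 CPM in knock-out libraries, against 19.7, 17.97, 18.6 and 7.82 CPM in wild-type libraries. Knock-out library 1 was highest of its genotype at each time, and the genotypes overlapped. The log2 fold changes were -0.14 ± 0.63 at 14 days and 1.02 ± 0.42 at 2 days (SE), the second at an unadjusted p of 0.0313 and an adjusted p of 0.866, edgeR quasi-likelihood test, Benjamini-Hochberg. Without knock-out library 1 the 2-day value was 0.43.

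Markers of other epithelial cell types moved with some of these libraries. The sum of 20 absorptive enterocyte genes was 5676 CPM in knock-out library 1 at 2 days, against 1494 to 2396 CPM in the other knock-out and 1416 to 1991 CPM in the wild-type libraries of that time. That library was also the highest for Reg3b and Guca2b at 2 days. At 14 days the sum of 17 goblet genes was 14771 CPM in knock-out library 1, against 2369 to 4792 CPM in the other knock-out and 1696 to 6845 CPM in the wild-type libraries. That library was highest for 5 of the 6 lectins and guanylins at 14 days. The enterocyte sum at 14 days was highest in wild-type library 3, at 8063 CPM, the library highest for 16 of 23 members. Under an unadjusted 0.05, 2.44% of all genes passed as higher and 1.55% as lower at 14 days. At 2 days 2.72% passed as higher and 2.19% as lower. Of the 20 enterocyte genes 19 had a positive log2 fold change at 2 days (median 1.22, 11 under an unadjusted 0.05), and of the 17 goblet genes 17 had one at 14 days (median 0.50, 3 under an unadjusted 0.05), with 0 called in either list. At 14 days 3 of the enterocyte genes were positive and 17 negative (median -0.45, 4 lower under an unadjusted 0.05), and at 2 days 12 of 16 goblet genes tested were positive (median 0.32, 2 higher and 1 lower under an unadjusted 0.05), again with 0 called. Of the enteroendocrine genes 13 of 14 tested were positive at 14 days (median 0.39, 2 higher under an unadjusted 0.05) and 6 of 12 at 2 days (median 0.01, 0 under it), with 0 called. Their sum over 16 genes was highest at 14 days in knock-out library 1, at 838 CPM, against 288 to 419 CPM in the other knock-out and 207 to 557 CPM in the wild-type libraries. At 2 days the goblet sum was highest in knock-out library 2, at 1494 CPM, and so was the enteroendocrine sum, at 366 CPM. Of the tuft genes 11 of 13 tested were positive at 14 days (median 0.40, 0 under an unadjusted 0.05). At 2 days 10 of 12 were positive (median 1.01, 2 higher under it), with 0 called at either time. The sum of 14 tuft genes was highest in knock-out library 3 at 14 days, at 224 CPM. At 2 days it was highest in knock-out library 2, at 107 CPM. The part of these cell types in the members' values was not tested.

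Nupr1 (chr7:126623249-126630861, minus strand), a small chromatin-associated protein of the stress response, overlapped between genotypes. It was at 216, 49.4, 127, 152 and 230.2 CPM in knock-out libraries at 14 days, against 69.6, 124, 219, 128 and 118 CPM in wild-type libraries. Its 2-day levels were 6.01, 10.99, 4.48 and 6.38 CPM in knock-out libraries, against 3.73, 9.01, 9.15 and 2.86 CPM in wild-type libraries. The groups overlapped at both times, with log2 fold changes of 0.23 ± 0.36 and 0.18 ± 0.45 (SE) at 14 and 2 days.

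**Figure D5:**
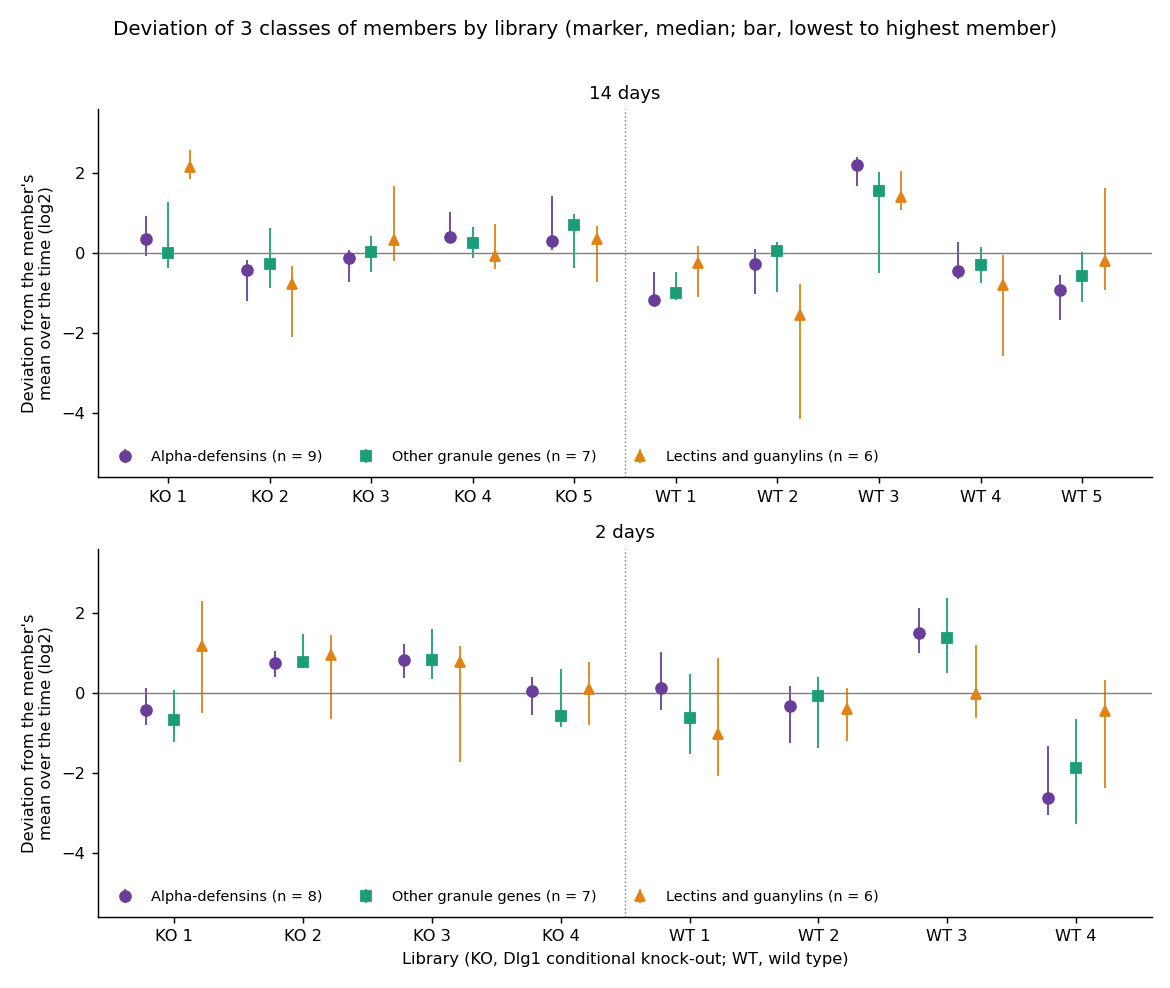
Deviation of each library from a member's mean log2 level over the libraries of its time, for alpha-defensins (9 at 14 days, 8 at 2 days), the 7 other granule genes and the 6 lectins and guanylins, with knock-out (KO) libraries left and wild-type (WT) right. Markers are medians over the class and bars run from the lowest to the highest member. Alpha-defensins and granule genes both peak in wild-type library 3 at each time, with 14-day medians of 2.196 and 1.56. Elsewhere they can part, as in wild-type library 1 at 2 days, at 0.13 and -0.61. At 14 days the lectins and guanylins peak in knock-out library 1, at 2.15, and are at 1.40 in wild-type library 3.

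The genotype effect did not differ detectably between times for any member. Of 23 members in the joint fit, 0 were called for the effect at 14 days minus that at 2 days, against 0.0% of all genes (edgeR quasi-likelihood test). At an unadjusted 0.05, 0 members passed in either direction, against 5.96% of all genes, 2.32% as positive and 3.64% as negative differences. DESeq2 and limma voom also had 0 at either threshold, where 7.11% and 5.91% of all genes passed the unadjusted one. The standard errors of this difference ran from 0.58 to 1.29 log2 units. Estimates above their own standard error, such as -1.38 ± 0.89 for Ang4, did not pass, so differences of that size can go undetected. The largest estimates by p after Ang4 were Guca2b at -1.17 ± 0.87 and Defa34 at 1.43 ± 1.29 (log2, SE, adjusted p = 0.864 and 0.886, edgeR quasi-likelihood test, Benjamini-Hochberg). Defa34 was too low to test at 2 days alone, at 0 to 32 counts a library. The 2-day part of its difference therefore rests on few counts.

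Per kilobase of exon, the order of levels was headed by the alpha-defensins. Exon lengths were not corrected for sequence shared with other genes, 28.1% of words for Defa24 and 52.4% for Defa30. The part of shared sequence in this order was not tested. At 14 days Defa24 was at 6371 ± 1292 CPM per kb in knock-out and 8121 ± 9572 in wild-type libraries, and Defa30 at 2199.8 ± 437 in knock-out and 3348 ± 4058 in wild-type libraries (SD, n = 5 each). Reg3b and Reg3g came next in knock-out libraries, at 1783 ± 1543 and 1151 ± 904 CPM per kb, and the libraries of Defa30 and Reg3b overlapped in both genotypes. Defa24 exceeded Defa30 in every library. At 2 days Defa24, Defa30 and Lyz1 led in both genotypes, at 887 ± 409, 676 ± 314 and 296 ± 130 CPM per kb in knock-out and 696 ± 501, 547 ± 374 and 383 ± 494 in wild-type libraries (SD, n = 4 each). Lyz1 had rank 8 at 14 days and rank 3 at 2 days in both genotypes. Levels at 14 and 2 days come from separately scaled tables and were not tested against each other.

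Further Paneth cell genes outside the module were also counted. Of 31 tested at 14 days, 0 were called, with 4 higher and 3 lower in knock-out libraries at an unadjusted p under 0.05, where 2.44% of all genes were higher and 1.55% lower, and a median log2 fold change of 0.07. At 2 days 0 of 31 were called, with 0 higher and 3 lower, against 2.72% and 2.19% of all genes, and a median of 0.06. The sum of the 38 genes listed was highest at 14 days in wild-type library 3, at 3611 CPM, with 3492 CPM in knock-out library 1. The other 14-day libraries held 1576 to 2161 CPM. At 2 days it was highest in wild-type library 1, at 2417 CPM. Wild-type libraries 3 and 4, the highest and lowest for alpha-defensins, held 1490 and 1398 CPM. The lowest was knock-out library 1, at 1349 CPM. The Paneth and secretory fate factor Atoh1 had the smallest p of the list at 14 days, at 0.79 ± 0.26 (log2, SE, adjusted p = 0.957), and the pentraxin Mptx1 at 2 days, at -2.93 ± 1.03 (adjusted p = 0.866, both edgeR quasi-likelihood test, Benjamini-Hochberg). Mptx1, which shares words with Mptx2, was low at 2 days. It was at 0.0835 to 1.42 CPM in knock-out and 0.345 to 9.67 CPM in wild-type libraries, so the groups overlapped. Of 15 genes of the interleukin-22 and Stat3 response tested at each time, which is known to induce the Reg3 lectins, 0 were called, 1 was higher at an unadjusted 0.05 at 14 days and 1 was lower at 2 days. Both were Tifa, at 0.45 ± 0.20 at 14 days and -0.56 ± 0.24 at 2 days (log2, SE). Socs3, a direct Stat3 target, was at 14.4 ± 4.07 CPM in knock-out libraries, against 12.8 ± 3.81 CPM in wild-type ones at 14 days, and at 19.1 ± 5.31 CPM in knock-out libraries, against 13.1 ± 5.67 CPM in wild-type ones at 2 days (SD, n = 5 and 4 each). Of the other epithelial antimicrobial and barrier genes, 0 of 15 were called at 14 days, with 0 under an unadjusted 0.05, and 0 of 14 at 2 days, with 2 higher, Tff3 at 0.86 ± 0.30 and Reg1 at 1.19 ± 0.45 (log2, SE).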

How the data were processed

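The data are 2 deposited tables of read counts per gene, 1 for each time. The submitters' processing notes name bcl2fastq 2.20.0.422, STAR 2.4.2a and the build GRCm38, with no role or order. For the annotation, the counter, strand handling and multi-mapping reads, the rule is not given in the sources used here, and these bear directly on the alpha-defensins. Per the labels' protocols, libraries were made with SmartSeq and NexteraXT kits and no molecular identifiers are mentioned, so counts may hold PCR duplicates.

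Columns were assigned to groups by the genotype in their names. At 2 days the knock-out columns are named Dmin, read here as Dlg1 minus because the other columns of that table are named WT. Libraries are numbered by their place in each table, and the numbers pair nothing. Symbols and coordinates came from GENCODE M21 (42548 of 43432 identifiers matched) and promoters from RefSeq. There were 0 unused sample columns, and libraries held 11.1 to 40.5 M counts.

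Genes passing edgeR's filterByExpr (minimum count 10) were TMM-scaled and tested with edgeR 4.0.16 (R 4.3.3) within each time by its quasi-likelihood test, and p-values were adjusted by Benjamini-Hochberg over every gene tested. A joint fit of all 18 libraries gave the averaged genotype effect and its difference between times. Standard errors were taken from the F statistic. Two-sided exact permutation tests used log2(CPM + 0.5), in SciPy 1.17.1. Alternatives were RLE and upper-quartile factors, no filter, a minimum count of 50, DESeq2 1.42.0, limma 3.58.1 voom, tables without mitochondrial genes and repeat-like models, summed alpha-defensins, the joint fit, other pseudocounts (1 and 0.1) and each library left out. The fits were also run on simulated counts, drawn independently for each gene and library. No simulated library stood apart and genes did not vary together, so that run does not cover the spread seen here.

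Values per library were given for the 12 tested members of highest average level and the 3 of smallest p in each of 4 contrasts, and for other lists up to 4 genes of smallest p. Members and lists were chosen with earlier results of these data known.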

Additional observations from a re-analysis of the deposited data

Results flagged for a closer look

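Dixon's criterion at the 95% level asks whether the highest or lowest library of a group lies far from the rest. It was applied to 74 groups of values, those of the 16 named members and of the sums, and 20 stood apart. Chance gives about 1 in 20 groups if values are normally distributed. The criterion was applied to CPM and percent values without a log scale, for which that rate was not checked. Of the 20, 13 were in wild-type library 3 at 14 days, 3 in wild-type library 3 at 2 days, 1 in wild-type library 4 at 2 days, 2 in knock-out library 1 at 14 days and 1 in knock-out library 2 at 14 days. The values share libraries and are not independent.

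Wild-type library 3 at 14 days held 10539 CPM of Defa24, against 1165 to 2206 CPM in the other 4 wild-type libraries. For the other alpha-defensins it held 4205 CPM of Defa30 against 405 to 873 CPM, 1041 CPM of Defa17 against 77.8 to 176 CPM, and 9.50 CPM of Defa34 against 0.626 to 1.68 CPM. Among the granule genes it held 1946 CPM of Itln1 against 333 to 687 CPM, 793 CPM of Ang4 against 101 to 222 CPM, and 555 CPM of Mptx2 against 81.3 to 149.7 CPM. It also held 233 CPM of Mmp7 against 34.5 to 52.9 CPM and 44.8 CPM of Pla2g2a against 8.20 to 10.7 CPM. Both guanylins stood apart there, with Guca2a at 309 CPM against 59.5 to 124 CPM and Guca2b at 285 CPM against 27.9 to 77.6 CPM. The alpha-defensin sum was 1.34% of its counts against 0.196% to 0.407%, and the whole module 2.30% against 0.530% to 0.949%. That library also had the highest mitochondrial share at 14 days, 26.3%, and the part of this in its values was not tested.

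Wild-type library 3 at 2 days held 1414 CPM of Lyz1 against 82.8 to 244 CPM in the other 3 wild-type libraries, 16.0 CPM of Pla2g2a against 0.869 to 2.62 CPM, and 0.303% of its counts in the members other than alpha-defensins against 0.0286% to 0.0746%. Wild-type library 4 at 2 days held 7.82 CPM of Guca2b, against 17.97 to 19.7 CPM in the others. Knock-out library 1 at 14 days held 599.6 CPM of Guca2a against 116 to 201 CPM in the other 4 knock-out libraries, and 249 CPM of Guca2b against 41.4 to 59.3 CPM. Knock-out library 2 at 14 days held 299 CPM of Ang4, against 148 to 178 CPM in the other knock-out libraries.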

How the results depend on the processing

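The count of members called was 0 in each contrast under every setting run except 1. Without a filter on low counts, 2 of 28 members tested were called for the averaged effect by edgeR's quasi-likelihood test. They were Guca2a (log2 fold change 0.97, adjusted p = 4.65e-04) and Reg3b (1.04, adjusted p = 0.0165). Of all 35326 genes that setting called 27 higher and 13 lower for the averaged effect, and 21 and 77 for the difference between times. It called 1 and 1 of 34812 genes at 14 days and 6 and 1 of 24179 at 2 days. DESeq2 called 3 and 4 for the averaged effect, 0 and 1 at 14 days, 8 and 3 at 2 days, and 2 and 9 for the difference. In the joint fit 1 gene was higher and 1 lower at 2 days. Of 726 alternative values of 37 named fold changes, 43 reversed, in 19 fold changes. Limma voom reversed 9, at 14 days Defa24 (0.15), Itln1 (0.071), Defa17 (0.20) and Guca2b (0.045), and at 2 days Itln1 (0.29), Lyz1 (0.36), Mptx2 (0.87), Mmp7 (0.12) and Pla2g2a (0.90). The cause was not tested.

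With each library left out, reversed 14-day fold changes ran from -0.57 to 0.72 for Defa24, -0.84 to 0.51 for Defa30, -0.77 to 0.80 for Defa17, -0.34 to 1.38 for Defa34, -0.36 to 0.50 for Itln1, -0.52 to 0.30 for Lyz1, -0.80 to 0.31 for Ang4, -0.0019 to 1.04 for Mptx2 and -0.996 to 0.78 for Guca2b. Those at 2 days ran from -0.017 to 0.86 for Defa24, -0.066 to 0.73 for Defa30, -0.19 to 0.81 for Defa17, -0.44 to 0.52 for Itln1, -0.72 to 1.10 for Lyz1, -0.54 to 1.54 for Mptx2, -0.14 to 0.42 for Nupr1, -0.43 to 0.51 for Mmp7, -0.14 to 0.82 for Habp2 and -0.59 to 1.46 for Pla2g2a. Reg3b, Reg3g and Guca2a kept their sign at both times, from 0.32 to 1.59 for Guca2a at 14 days. The members' median ran from -0.11 to 1.04 at 14 days, -0.13 to 1.04 at 2 days, -0.18 to 0.53 averaged and -1.15 to 0.56 for the difference. Summed shares of wild-type libraries ran from 0.283% to 0.569% at 14 days and 0.0374% to 0.0806% at 2 days for alpha-defensins, and from 0.384% to 0.565% and 0.0503% to 0.142% for the other members.

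Leaving mitochondrial genes and repeat-like models out of the total raised the shares in every library of both genotypes. For alpha-defensins the knock-out sums moved by more than 1 SD, to 0.489% at 14 days and 0.119% at 2 days. At 2 days so did those of the other members, to 0.172%, and of the whole module, to 0.291%. The wild-type values of these sums rose by less than 1 SD, and their SDs were larger. Wild-type alpha-defensin shares then ran from 0.223% to 1.82% at 14 days, against 0.196% to 1.34% of all counts. At 2 days they ran from 0.0115% to 0.186%, against 0.00800% to 0.138%. Other pseudocounts moved 0 of 31 exact p-values across the threshold. A term for the letter in the 14-day column names, chosen after seeing the data, called 0 members. No paired analysis was possible because the column names carry no replicate number of the labels. The 13 untested alpha-defensins had at most 26 counts in a library, and how far depth or shared sequence sets this was not tested.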
